A study of Mus musculus with 24 samples.

Results

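Adipose progenitors labelled APC, from the gonadal fat of male mice (M_APC), were compared with progenitors labelled DPP4_neg from the inguinal fat of male mice (M_DPP4_neg). The comparison used 6 of the 24 libraries of the series, 3 in each group. All 6 were bulk RNA libraries of PDGFRb+ cells that had been sorted by flow cytometry, and the mice were male C57BL/6. The labels name no treatment and no altered allele, and they do not give the age, the diet or the gates that separated the subpopulations. Depot and subpopulation differ together between the groups, so what each contributes cannot be told apart. The title of the series names differences of these cells by sex and depot as its subject. Whether each library of a group was made from other animals is not stated, so the p-values speak of library-to-library spread, part or all of which may be technical.

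PDGFRb is a receptor of mural and stromal cells, and in adipose tissue the cells that carry it include the precursors from which fat cells form. Gonadal fat is a visceral depot, whose progenitors derive in part from cells that express the kidney and mesothelium factor WT1. Inguinal fat is a subcutaneous depot, and its progenitors express transcription factors of the limb and dermis such as TBX15, SHOX2 and EN1. Such positional genes are laid down in the embryo and persist in adult stromal cells. DPP4 marks an early progenitor of the fascia around the fat, and DPP4-negative cells hold the precursors that are more committed to the fat cell fate. Published sorts of gonadal PDGFRb+ cells took as APC those cells that lacked LY6C and CD9. Whether the same gate was used here was not given.

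The deposited values are read counts divided by a size factor for each library, called normalised counts below. Recovered reads numbered 10324560 to 11300524 in the M_APC libraries and 13055651 to 15929327 in the M_DPP4_neg libraries. Of the 27179 genes in the table, 13332 had a normalised count of at least 10 in at least 3 of the 6 libraries and were tested. After the deposited scaling, the library totals averaged 12054177 in M_APC and 16155051 in M_DPP4_neg, a log2 ratio of -0.42. The 10 most abundant genes took 12.2% to 12.5% of the reads in M_APC and 19.1% to 19.5% in M_DPP4_neg, led in both by Gsn and Col3a1. Scaling every library to the same total moved the median log2 fold change of all genes from 0.04 to 0.45, so changes below are relative to the deposited scaling. One library stood apart: M_DPP4_neg replicate 1 differed from the other 2 of its group by a chi-square per degree of freedom of 27.1 and 19.1, against 2.6 between those 2. In it the 30 listed ribosomal protein genes had a median log2 difference of 0.55 from the mean of the other 2 libraries. Pdgfrb, the sort marker, was present in all 6 libraries, at 6277, 6045 and 6134 normalised counts in M_APC and 3720, 4306 and 4213 in M_DPP4_neg. Dpp4 differed little between the groups, at 160, 204 and 218 in M_APC and 242, 235 and 258 in M_DPP4_neg. The X-inactivation transcript Xist was at 5.80 or less in each of the 6 libraries.

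Of the 13332 tested genes, 8538 (64.0%) were called, meaning that limma gave an adjusted p (Benjamini-Hochberg) under 0.05. Of these, 4278 (32.1% of the tested genes) were higher in M_APC and 4260 (32.0%) were lower. With every library scaled to the same total, 7281 genes were called higher and 2451 lower, 74.8% of the calls on the higher side against 50.1% as deposited. The groups did not overlap for 9220 genes (69.2%). A list member under 10 in every library of one group passed the filter through the other group only, so its direction was fixed beforehand. The list counts below include such members and are to be read against the shares of 32.1% higher and 32.0% lower. Counts for the committed preadipocyte, cholesterol, BMP and TGF-beta, insulin-like growth factor, retinoid, steroid, other collagen and matrix protease lists lay within 10 percentage points of these in each direction. So did the counts for the guidance list. Past 2-fold, 1530 genes (11.5%) were called higher and 1722 (12.9%) lower. Past 32-fold there were 27 higher and 62 lower. A switch-like pattern, with at least 100 normalised counts in every library of one group and under 10 in every library of the other, was seen in 12 genes for M_APC and 28 genes for M_DPP4_neg.

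Some transcription factors that mark a body region were among the genes with the widest separations. Tcf21, a basic helix-loop-helix factor of visceral mesenchyme (chr10:22817263-22820143 in GRCm38), was the gene with the highest fold change of those eligible for naming. Its normalised counts were 2968, 3309 and 3023 in M_APC and 6.09, 7.15 and 6.17 in M_DPP4_neg. On the log2 scale it was higher by 8.70 ± 0.12 (SE), with an adjusted p of 2.54e-10. Tbx15, a T-box factor of the limb and trunk skin (chr3:99240348-99354260), lay at the other end. It had 3.22, 3.48 and 5.66 normalised counts in M_APC and 2794, 2620 and 2536 in M_DPP4_neg, a log2 fold change of -9.05 ± 0.18 (adjusted p 1.03e-09). These 2 genes thus differed in opposite directions. That their libraries did not overlap was required by the rule that named them.

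The start regions of 4 genes from the 2 ends of the comparison show what lies next to the transcripts that separated the depots. Each is the 250 bases before the RefSeq start on GRCm38.p6, printed 5′ to 3′ on the strand of the gene. Capitals mark every match to 1 of 3 core promoter motifs on either strand. The first is the TATA box, searched with the letters TATAAA. The second is the CAAT box, searched with the letters CCAAT, and the third is the GC box, searched with the letters GGGCGG. The windows are chr10:22820144-22820393 on the minus strand for Tcf21, chr3:66981772-66982021 on the minus strand for Shox2, chr1:120602237-120602486 on the plus strand for En1 and chr9:7445572-7445821 on the plus strand for Mmp3. Wt1 and Tbx15 are named only.
Tcf21: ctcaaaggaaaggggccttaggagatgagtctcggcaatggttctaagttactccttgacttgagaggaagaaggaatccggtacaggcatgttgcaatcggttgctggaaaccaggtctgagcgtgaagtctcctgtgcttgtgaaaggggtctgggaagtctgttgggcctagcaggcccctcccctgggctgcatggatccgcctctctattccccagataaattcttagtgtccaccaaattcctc
Shox2: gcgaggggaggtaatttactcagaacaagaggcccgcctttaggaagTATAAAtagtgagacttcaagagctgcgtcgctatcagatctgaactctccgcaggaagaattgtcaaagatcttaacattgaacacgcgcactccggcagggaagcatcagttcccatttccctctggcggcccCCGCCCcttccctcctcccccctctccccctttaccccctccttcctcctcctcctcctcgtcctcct
En1: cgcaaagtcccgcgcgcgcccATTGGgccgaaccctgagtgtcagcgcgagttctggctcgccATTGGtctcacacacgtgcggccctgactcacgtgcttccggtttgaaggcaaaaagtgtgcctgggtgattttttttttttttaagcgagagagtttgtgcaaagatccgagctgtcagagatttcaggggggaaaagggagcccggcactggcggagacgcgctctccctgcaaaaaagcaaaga
Mmp3: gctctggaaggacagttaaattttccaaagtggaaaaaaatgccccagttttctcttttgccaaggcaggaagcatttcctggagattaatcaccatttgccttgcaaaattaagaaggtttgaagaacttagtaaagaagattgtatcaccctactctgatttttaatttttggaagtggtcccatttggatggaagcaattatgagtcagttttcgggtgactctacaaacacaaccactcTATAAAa
The Shox2 window held 1 TATA box and 1 GC box, the En1 window 2 CAAT boxes read on the opposite strand, and the Mmp3 window 1 TATA box close to the start. The Tcf21 window held none of the 3. Among 27025 promoters of the same length, 13% held a TATA box, 34.5% a CAAT box and 32.9% a GC box. CG dinucleotides numbered 5 in Tcf21, 11 in Shox2, 19 in En1 and 1 in Mmp3, beside a median of 6.0 over all promoters. Of all promoters, 55.5% held at least as many as Tcf21, 36% as many as Shox2, 19.6% as many as En1 and 91.7% as many as Mmp3. The homeobox genes Shox2 and En1 thus had more CG than the median promoter, and Tcf21 and the protease gene Mmp3 had less. A match is a description of these letters only.

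Of 16 listed visceral factors, 8 passed the filter on low values, and 6 of these were called higher in M_APC and 0 lower, with a median log2 fold change of 0.94 beside 0.04 over all tested genes. Among them Tcf21 was under 10 in every M_DPP4_neg library. It passed the filter through M_APC only, so its direction was fixed beforehand. Wt1, the zinc finger factor of kidney and mesothelium (chr2:105126529-105173614), had 2672, 2488 and 2693 normalised counts in M_APC and 12.2, 19.4 and 11.1 in M_DPP4_neg. Its log2 fold change was 7.46 ± 0.18 (adjusted p 3.03e-09). The orphan nuclear receptor genes Nr2f1 and Nr2f2 were higher by 2.02 ± 0.12 and 1.16 ± 0.08 on the log2 scale, with the libraries of the 2 groups apart in each. Gata6 and Osr1, factors of visceral and urogenital mesoderm, were higher by 0.47 and 0.44. Gata4, another visceral factor, was below the filter at 5.37, 5.80 and 5.66 in M_APC and at 0, 1.02 and 1.23 in M_DPP4_neg.

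Of 31 listed factors of the limb and subcutaneous layer, 22 passed the filter, with 16 called lower in M_APC and 3 higher and a median log2 fold change of -1.96. The lower members included Tbx15, Shox2, Irx1, Irx2 and Lhx8, which were under 10 in every M_APC library. These passed the filter through M_DPP4_neg only, so their direction was fixed beforehand. En1, a homeobox factor of ventral skin and dermis (chr1:120602487-120607991), had 10.7, 5.80 and 1.13 normalised counts in M_APC and 1427, 1391 and 1412 in M_DPP4_neg. Its log2 fold change was -7.99 ± 0.49 (adjusted p 6.69e-07). Shox2, a homeobox factor of the proximal limb (chr3:66971723-66981771), had 1.07, 2.32 and 3.39 in M_APC and 320, 360 and 366 in M_DPP4_neg, a log2 fold change of -6.81 ± 0.28. These values place both genes among the switch-like or nearly switch-like genes.

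The Iroquois homeobox genes Irx1 and Irx2, which take part in patterning the embryo, were of the same kind. Irx2 had 4.29, 4.64 and 1.13 normalised counts in M_APC and 317, 286 and 288 in M_DPP4_neg. Irx1, its neighbour on chromosome 13, had 2 reads over the M_APC libraries, and the ratio was 350 with an exact binomial 95% interval of 96.5 to 2894, which covers counting error only. Lhx8, a LIM homeobox factor, had 0 reads in M_APC and 170, 164 and 155 normalised counts in M_DPP4_neg, so with a floor of 3 counts for the whole group it was at least 146-fold lower in M_APC. Irx3 did not pass the test, at a log2 fold change of -0.45. Irx5 was lower, at a log2 fold change of -3.01, at low means of 1.87 and 21.9, and Pitx1 was below the filter.

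Broad mesenchymal factors in the same list differed less. Twist1, Prrx1 and Meox2 were lower in M_APC, with log2 fold changes of -1.69, -1.57 and -2.58. The 3 members called higher included Tbx3, at 366, 325 and 353 normalised counts against 129, 137 and 131, and Alx4, which was higher by 2.75. So a list named for the limb and the subcutaneous layer did not move as a block.

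**Figure D1:**
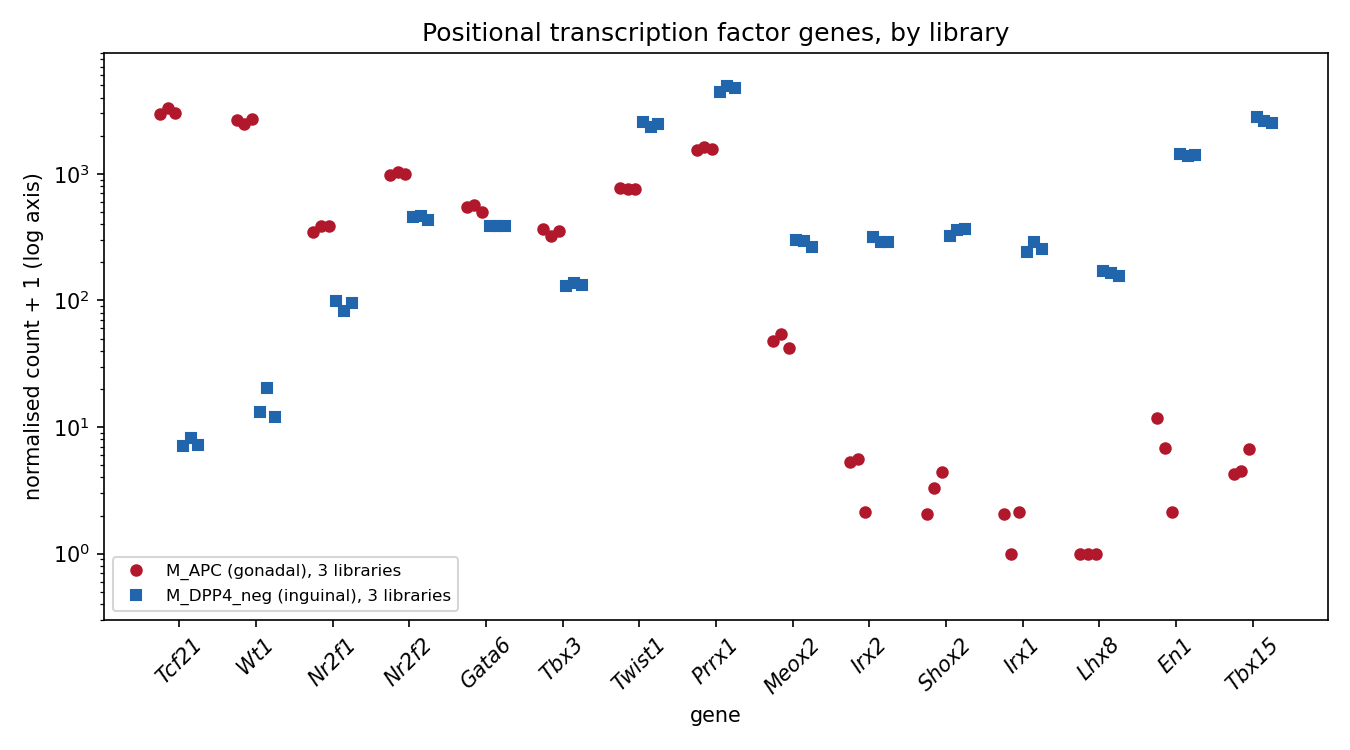
Normalised count plus 1 (log axis) of 15 positional transcription factor genes, with 1 point for each of the 3 M_APC (red circles) and 3 M_DPP4_neg (blue squares) libraries. Tcf21 and Wt1 sit above 2000 in the M_APC libraries only, and Tbx15 and En1 sit above 1000 in the M_DPP4_neg libraries only, while Gata6, Tbx3, Twist1 and Prrx1 differ by smaller steps.

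Hox genes encode homeobox factors whose paralogue number runs along the body axis, low numbers towards the head and high numbers towards the tail and limb tip. Of 39 listed Hox genes, 26 passed the filter, and 16 of them were called higher in M_APC and 7 lower. Among paralogues 1 to 8, 16 of 20 tested genes were called higher and 2 lower, with a median log2 fold change of 1.04. Of the 6 tested paralogues 9 to 13, 0 were called higher and 5 were called lower, with a median of -3.29. Among them Hoxa9, Hoxa10 and Hoxc11 were under 10 in every M_APC library. These passed the filter through M_DPP4_neg only, so their direction was fixed beforehand. This division by paralogue number was chosen after the values were seen, and no test was made of it. Strand was not stated for the counting, so reads of Hox genes and of antisense genes in the clusters cannot be told apart.

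Hoxc10 (chr15:102966796-102971898) had 7.51, 10.4 and 3.39 normalised counts in M_APC and 428, 405 and 430 in M_DPP4_neg. Its log2 fold change was -5.81 ± 0.30 (adjusted p 2.39e-07), the farthest of the Hox genes with more than 3 reads in each group. Hoxa10 had a log2 fold change of -3.71 ± 0.59 at low levels, with 0, 1.16 and 4.53 against 34.5, 23.5 and 29.6. Hoxc11 had 2 reads in M_APC, and its ratio was 54.0 with an exact interval of 14.6 to 452. In the other direction, Hoxa5 (chr6:52201754-52204587) had 341, 449 and 366 in M_APC and 63.9, 48.0 and 41.9 in M_DPP4_neg, a log2 fold change of 2.90 ± 0.17. Hoxc8, beside Hoxc9 and Hoxc10 on chromosome 15, was higher in M_APC by 1.08 ± 0.15, whereas Hoxc9 was lower (-0.62 ± 0.17, and not called with equal library totals, at -0.20).

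The clusters were unlike one another in these counts. HoxA had 7 of 9 tested genes called higher and 2 lower, HoxB 5 of 6 higher and 0 lower, HoxC 3 of 7 in each direction, and HoxD 1 of 4 higher and 2 lower. The smaller differences depended on the scaling: under quantile normalisation 3 HoxB genes and 0 HoxD genes were called higher, and with equal library totals 0 HoxD genes were called lower. Without M_DPP4_neg replicate 1 the HoxA count was 6 higher and 2 lower, and the other 3 clusters gave the counts above.

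**Figure D2:**
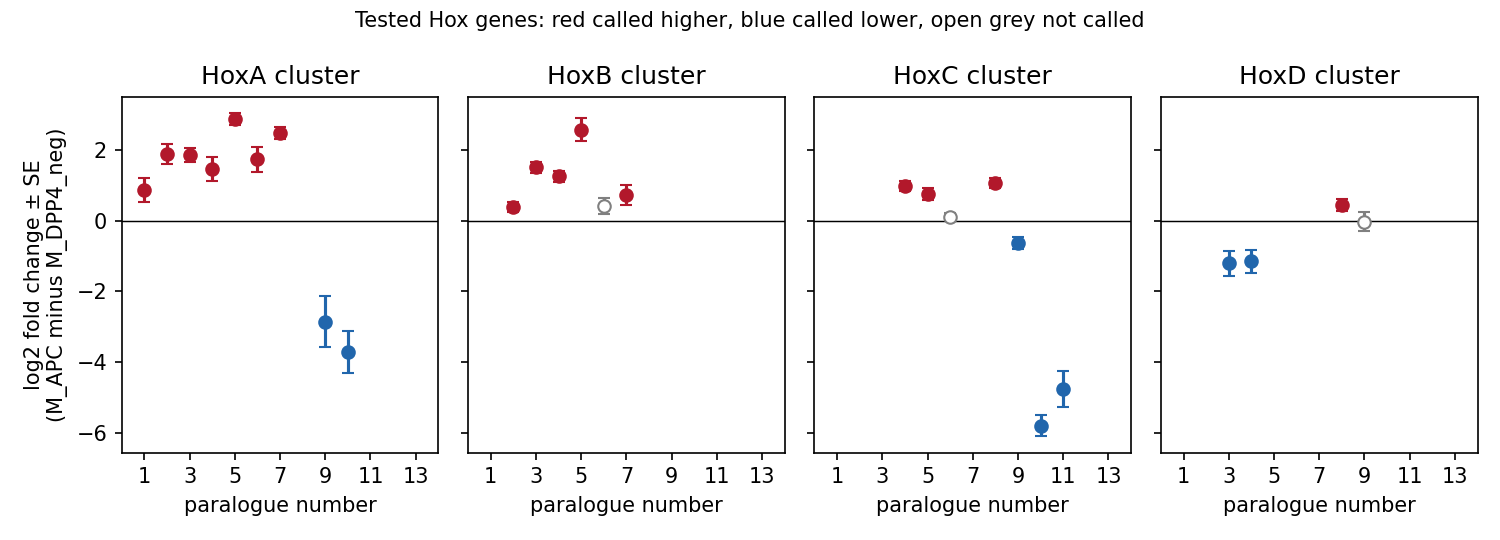
Log2 fold change (M_APC minus M_DPP4_neg, bars are SE) of each tested Hox gene against its paralogue number, in 1 panel for each cluster. Paralogues 1 to 8 of HoxA and HoxB lie above 0, and Hoxa9, Hoxa10, Hoxc10 and Hoxc11 lie far below it.

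Outside the positional factors, the 14 genes with the highest fold changes included the following. Aldh1a3, which makes retinoic acid from retinal, had 3654, 3429 and 3423 normalised counts in M_APC and 72.0, 46.0 and 39.5 in M_DPP4_neg, a log2 fold change of 6.08 ± 0.19 (adjusted p 1.07e-08). Clic6, an intracellular channel family member, had 886, 772 and 864 against 4.06, 11.2 and 2.47. Megf10, a receptor of the engulfment and muscle satellite cell pathways, had 737, 618 and 672 against 5.07, 8.17 and 11.1. Gatm, the first enzyme of creatine synthesis, had 721, 585 and 603 against 8.12, 9.19 and 6.17. The rule that named these 4 genes required that the groups not overlap, so their lack of overlap is no separate result.

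Mmd2, Enpp6, Fam83a, St8sia6, Cadps and Ppp1r14a filled most of the remaining places, with log2 fold changes of 5.82 to 7.39. Enpp6 is a choline phosphodiesterase. Gdpd2 had 1 read over the M_DPP4_neg libraries and 336 reads over the M_APC libraries, and its ratio was 348 with an exact interval of 62.1 to 13793.

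At the low end stood secreted proteins, together with genes of neutrophil granules. Mmp3, the matrix protease stromelysin (chr9:7445822-7455975), had 56.9, 88.1 and 87.1 normalised counts in M_APC and 34280, 24871 and 27467 in M_DPP4_neg, a log2 fold change of -8.54 ± 0.17 (adjusted p 1.13e-09). Prg4, the joint lubricant lubricin, had 29.0, 18.6 and 50.9 against 3863, 4326 and 4443. Both genes were high in every M_DPP4_neg library.

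Cxcl13, the chemokine that draws B cells, had 18.2, 16.2 and 15.8 in M_APC and 3265, 2141 and 2538 in M_DPP4_neg. Gdnf, a growth factor for neurons, had 2.15, 0 and 2.26 against 466, 464 and 488. Neu2, a sialidase, had 0 reads in M_APC and was at least 175-fold lower there.

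The neutrophil granule genes varied more within M_DPP4_neg than the rest of these 14. Ngp had 604, 213 and 660 normalised counts in the M_DPP4_neg libraries and 2 reads in M_APC, for a ratio of 646 with an exact interval of 178 to 5340. S100a8 had 687, 184 and 506 and likewise 2 reads in M_APC, for a ratio of 611 and an interval of 169 to 5053. Ltf had 294, 108 and 418 and 0 reads in M_APC, so it was at least 236-fold lower there. In all 3 genes M_DPP4_neg replicate 2 was the lowest of its group. The 7 listed neutrophil markers summed to 486 to 1739 normalised counts in the M_DPP4_neg libraries and 3.39 to 15.1 in the M_APC libraries. All 4 of the markers tested were lower in M_APC, but each was under 10 in every M_APC library. These markers passed the filter through M_DPP4_neg only, so their direction was fixed beforehand. Cxcr2, Retnlg and Ly6g were below the filter. The part of such cells in the results was not tested.

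**Figure D3:**
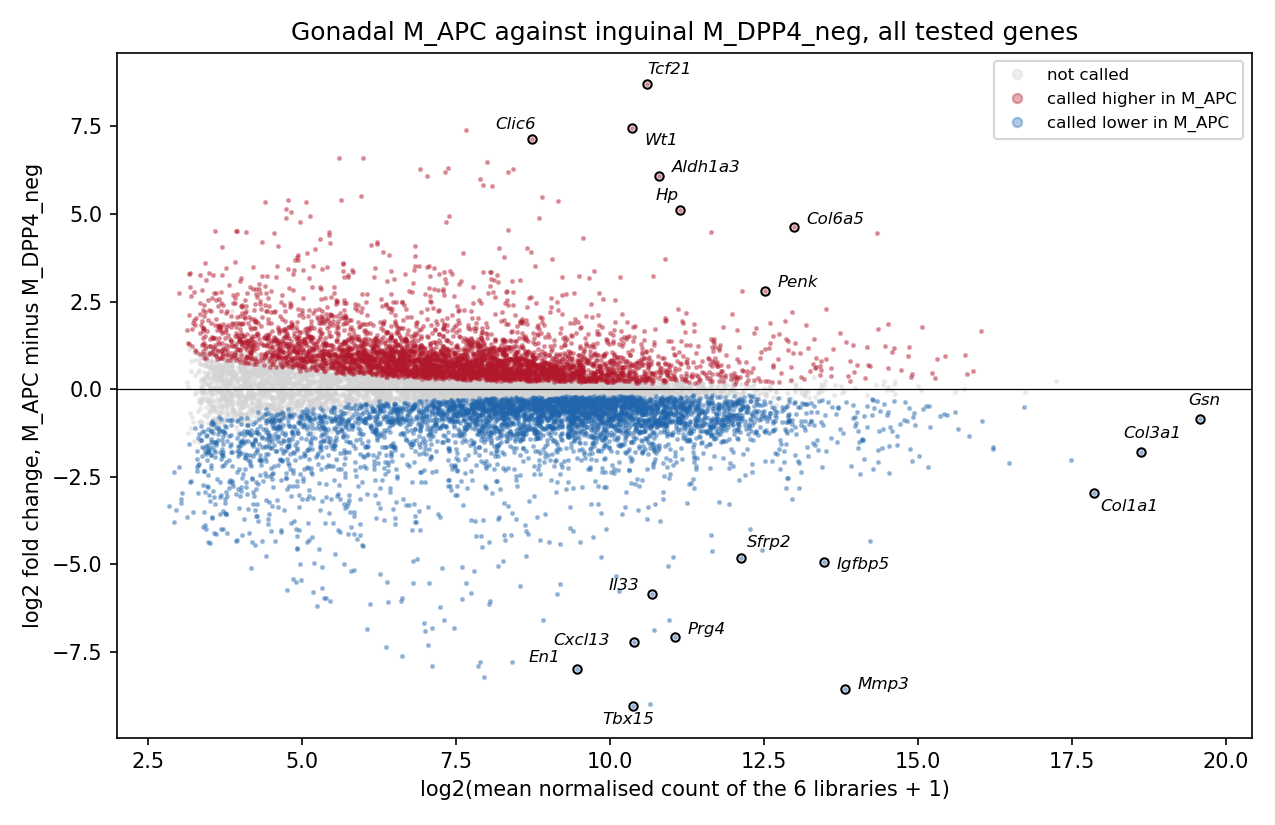
Log2 fold change of each tested gene against its mean level, log2(mean normalised count of the 6 libraries + 1), with called genes in red (higher in M_APC) and blue (lower). Tcf21 at 8.70 and Tbx15 at -9.05 bound the named genes, and the abundant collagen genes Col1a1 and Col3a1 and the gelsolin gene Gsn lie below 0 at the right.

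Among genes of surface proteins used to sort adipose progenitors, Cd9 and Ly6c1 differed strongly between the 2 groups, whereas Pdgfrb and Dpp4 differed less. Cd9, a tetraspanin, had 96.6, 123 and 129 normalised counts in M_APC and 4176, 3694 and 3604 in M_DPP4_neg, a log2 fold change of -5.04 ± 0.12 (adjusted p 2.78e-09). Ly6c1 had 338, 310 and 365 against 7232, 5296 and 5641, a log2 fold change of -4.15 ± 0.12. Because Ly6c1 has a near-identical copy, its value as a separate gene is uncertain. Whether either protein was used in the sort was not given.

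Of 18 tested surface genes of mesenchymal cells, 11 were called lower in M_APC and 6 higher, with a median of -1.23. Cd44, the hyaluronan receptor, and Ly6a, the antigen SCA1, were lower, with log2 fold changes of -3.14 and -2.22. Lepr, the leptin receptor, averaged 5.97 in M_APC and 117 in M_DPP4_neg. Pdgfra and Pdgfrb, both receptors for platelet-derived growth factors, were higher in M_APC by 0.63 ± 0.07 and 0.60 ± 0.08. Nt5e, the ectonucleotidase CD73, and Mcam were higher by 2.49 and 2.88, and Mcam was also on the mural marker list given below.

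Markers of interstitial DPP4+ progenitors were mostly lower in M_APC, beside an inguinal group that by label lacks DPP4. Of 16 tested, 12 were called lower and 2 higher, with a median of -0.77, and with equal library totals the count was 8 lower and 5 higher. Igfbp5, which binds insulin-like growth factors, had 808, 596 and 783 normalised counts in M_APC and 19642, 22319 and 24487 in M_DPP4_neg, a log2 fold change of -4.93 ± 0.13. Wnt2, a WNT ligand, had a log2 fold change of -4.91 ± 0.48. Pi16, a peptidase inhibitor typical of these progenitors, had 326, 386 and 423 against 815, 664 and 700, a log2 fold change of -0.94 ± 0.12. Dpp4 was lower (-0.35 ± 0.13, adjusted p 0.0414), but it was at 0.07 and not called with equal library totals.

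In the committed preadipocyte list, 5 of 17 tested genes were called higher in M_APC and 5 lower, near the shares of 32.1% and 32.0% over all tested genes, with a median of 0.02. Equal totals gave 12 higher and 3 lower, and quantile normalisation 10 and 4. Penk, which codes for enkephalin, had 9902, 11137 and 9780 in M_APC and 1780, 1335 and 1313 in M_DPP4_neg, a log2 fold change of 2.81 ± 0.12. Vtn, vitronectin, was higher by 1.36 ± 0.08. Icam1, the adhesion molecule that names this state, was lower, at 7196, 6130 and 6889 against 31544, 33317 and 33274 (log2 fold change -2.28 ± 0.08). Dlk1, the preadipocyte factor, was lower (-2.28 ± 0.36) at means of 4.49 and 24.9.

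In the list of F3-positive stromal regulators, 7 of 10 tested were called lower in M_APC and 1 higher, and with equal totals 6 lower and 3 higher. Clec11a, a growth factor of stromal cells, had 128, 111 and 108 against 2022, 1753 and 1736. F3, tissue factor itself, was lower (-0.68 ± 0.08), and Cyp1b1 was the member called higher, by 1.14.

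Regulators of fat cell formation leaned to the gonadal cells. Of 23 tested factors, 13 were called higher in M_APC and 5 lower, with a median of 0.65, and without M_DPP4_neg replicate 1 the count was 13 and 8. Pparg, the nuclear receptor that drives adipogenesis, had 527, 589 and 551 in M_APC and 393, 324 and 350 in M_DPP4_neg, a log2 fold change of 0.65 ± 0.10. Cebpa was higher by 0.75 ± 0.08, Klf15 by 2.01 and Gata2, which restrains adipogenesis, by 2.63. Klf5, which acts early in adipogenesis, ran the other way, at 21.5, 19.7 and 24.9 against 226, 295 and 291 (log2 fold change -3.56 ± 0.17).

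Lipid storage genes were called higher in 15 of 22 tested and lower in 3, with a median of 0.90. Plin1, the lipid droplet coat protein of fat cells, had 186, 200 and 194 in M_APC and 80.2, 76.6 and 71.5 in M_DPP4_neg. Adipoq, the fat cell hormone adiponectin, had 143, 197 and 205 against 104, 76.6 and 74.0, a log2 fold change of 1.09 ± 0.18. Lipe, Retn and Gpam were higher by 2.04, 2.07 and 1.97. The 9 listed adipocyte markers, most of them also on the storage list, summed to 1507 to 2007 in the M_APC libraries and 429 to 739 in the M_DPP4_neg libraries, and their part in the storage count was not tested.

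The more abundant genes of lipid uptake did not follow. Fabp4, a fatty acid carrier, had 8065, 9971 and 7849 in M_APC and 11337, 6974 and 7834 in M_DPP4_neg, and did not pass the test (log2 fold change 0.01 ± 0.17, adjusted p 0.964). Cd36, a fatty acid transporter, was at 0.02 ± 0.10 (adjusted p 0.898). With equal library totals both were called higher, at 0.43 and 0.44, and without M_DPP4_neg replicate 1 Fabp4 was called at 0.21. Lpl, lipoprotein lipase, was lower (-0.55 ± 0.09), and Plin4 had 307, 349 and 382 against 1854, 2203 and 2663.

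Fatty acid synthesis genes were called higher in 10 of 15 tested and lower in 1, with a median of 0.62. Fasn, the fatty acid synthase, was higher by 0.78 ± 0.08 and the desaturase Scd1 by 1.21 ± 0.16. Of 24 cholesterol synthesis genes, 6 were called higher and 8 lower (11 and 5 with equal totals), near the 32.1% and 32.0% over all tested genes. Sqle, squalene epoxidase, was lower at 673, 531 and 580 against 1842, 2030 and 1933, whereas Mvk, mevalonate kinase, was higher by 1.37.

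WNT proteins act between cells and generally restrain adipogenesis. Of 12 tested WNT ligand and R-spondin genes, 6 were called higher in M_APC and 4 lower. Wnt5b had 292, 343 and 290 in M_APC and 36.5, 23.5 and 27.1 in M_DPP4_neg, a log2 fold change of 3.38 ± 0.18. Wnt5a, the ligand of the noncanonical branch, was higher by 2.20 ± 0.13. Rspo3 and Rspo1, which strengthen WNT signals, were higher by 2.77 ± 0.14 and 2.45, whereas Rspo2 had 1 read in M_APC and a ratio of 220 in the other direction (exact interval 39.1 to 8728). Axin2, a common WNT target, had 67.6, 70.7 and 70.1 against 18.3, 21.4 and 17.3.

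WNT antagonists were lower in M_APC in 8 of 12 tested and higher in 3, with a median of -0.53 (5 lower and 3 higher with equal totals). Sfrp2 had 253, 350 and 316 in M_APC and 8919, 9037 and 7808 in M_DPP4_neg, a log2 fold change of -4.81 ± 0.12. Sfrp4, of the same family of secreted frizzled-like proteins, had 52.6, 52.2 and 50.9 against 2620, 1852 and 1954. Dkk3 had a log2 fold change of -5.06 ± 0.20. Sfrp1, a further member, went the other way, at 3186, 2881 and 3013 against 716, 912 and 745.

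Of 34 tested BMP and TGF-beta genes, 12 were called higher in M_APC and 14 lower, beside 32.1% and 32.0% over all tested genes, and 18 higher and 11 lower at equal library totals. Of the BMP ligands, Bmp6 had 132, 160 and 155 in M_APC and 10.2, 9.19 and 7.40 in M_DPP4_neg, a log2 fold change of 3.92 ± 0.20. Inhbb, an activin subunit, was higher by 3.29 ± 0.16. In the other direction the antagonist gene Chrdl1 had 41.9, 34.8 and 45.2 against 3838, 3951 and 3968, a log2 fold change of -6.57 ± 0.11. Among members with smaller changes, chosen here after their values were seen, Bmp4 was higher by 1.34 ± 0.12, whereas Bmp2 (-1.72 ± 0.11) and the activin binder Fst (-2.04 ± 0.09) were lower.

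Hedgehog genes had 6 of 11 tested called higher in M_APC and 3 lower. The transcription factor Gli1, itself a target of the pathway, had 37.6, 20.9 and 32.8 against 344, 461 and 444. The hedgehog coreceptor genes Gas1 and Boc were higher, by 1.70 ± 0.07 and 1.33 ± 0.09. Ptch1, a receptor and target chosen after its value was seen, was at 0.09 ± 0.24 (adjusted p 0.759). The 2 targets therefore did not give the same picture.

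FGF genes had 9 of 18 called higher and 6 lower. The feedback phosphatase gene Dusp6 had 704, 683 and 715 in M_APC and 117, 120 and 111 in M_DPP4_neg. Fgfr1, the main FGF receptor of stroma, was lower at 5229, 4937 and 5238 against 14011, 16353 and 15993. In the insulin-like growth factor list, 5 of 14 were called higher and 5 lower (7 and 4 with equal totals). Igf1 had 9026, 8258 and 8178 against 3529, 3886 and 3806, a log2 fold change of 1.18 ± 0.07. Pappa, the protease that releases the growth factor from its binders, was higher by 3.20 ± 0.23, and Igfbp3, a binder, was lower (-2.92 ± 0.10).

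Retinoid genes had 5 of 15 called higher and 4 lower (9 and 3 with equal totals). The synthetic enzyme genes Aldh1a1, Aldh1a2 and Aldh1a3 were all called higher, by 1.11 ± 0.10, 1.72 ± 0.13 and 6.08 ± 0.19. Cyp26b1, which degrades retinoic acid, had 25.8, 11.6 and 21.5 in M_APC and 586, 627 and 564 in M_DPP4_neg, a log2 fold change of -4.91 ± 0.25.

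Steroid genes had 5 of 14 called higher and 4 lower (10 and 4 with equal totals). Esr1, oestrogen receptor alpha, had 382, 294 and 361 in M_APC and 842, 1210 and 1408 in M_DPP4_neg, a log2 fold change of -1.71 ± 0.18. Sult1e1, which inactivates oestrogens, had 13056, 14144 and 12059 against 3071, 2760 and 2645. Hsd11b1, which regenerates active glucocorticoid, was higher by 1.73 ± 0.08. So a receptor for oestrogens was lower in M_APC while an enzyme that inactivates them was higher.

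Neurotrophic ligand and receptor genes had 9 of 15 called lower in M_APC and 4 higher, with a median of -2.17. The lower members included Gdnf and Gfra1, which were under 10 in every M_APC library. These passed the filter through M_DPP4_neg only, so their direction was fixed beforehand. Gfra1, the coreceptor for GDNF, was lower (-4.95 ± 0.54) at means of 1.82 and 69.1. Ntrk3, the receptor for neurotrophin 3, was higher at 251, 216 and 257 against 56.8, 79.7 and 78.9. In the guidance list 10 of 26 were called higher and 8 lower (14 and 5 with equal totals), with a median of -0.10. These counts were near the shares over all tested genes. Its member Epha3, an ephrin receptor, had 13.9, 9.27 and 9.05 against 348, 484 and 455.

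Chemokine genes formed one of the most one-sided lists. Of 17 tested, 14 were called lower in M_APC and 1 higher, with a median of -1.90, and the same count of 14 and 1 came from quantile, TMM and equal-total scaling and without M_DPP4_neg replicate 1. Besides Cxcl13, Ccl8 and Cxcl5 had log2 fold changes of -5.84 and -5.76. Ccl2, which attracts monocytes, had 13728, 13104 and 11882 in M_APC and 72728, 54242 and 54770 in M_DPP4_neg, a value chosen after it was seen. The member called higher was Ccl11, eotaxin, at 13444, 15361 and 12945 against 9736, 7038 and 7414 (0.80 ± 0.12).

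Cytokine and cytokine receptor genes had 18 of 24 called lower and 4 higher, with a median of -1.29. Il33, an alarmin of stromal cells, had 46.1, 48.7 and 76.9 in M_APC and 3388, 3101 and 3202 in M_DPP4_neg, a log2 fold change of -5.83 ± 0.17. Its receptor gene Il1rl1 had 20.4, 40.6 and 24.9 against 3570, 3078 and 3358. Csf2, a growth factor of myeloid cells, had a log2 fold change of -6.03 ± 0.32. Il6 (-1.50 ± 0.09) and Csf1 (-2.06 ± 0.10), named after their values were seen, were lower as well. The ligand IL33 and its receptor thus were low in the same libraries.

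Complement genes were lower in M_APC in 11 of 23 tested and higher in 6, but 9 and 9 under quantile normalisation, and with equal totals 9 lower and 12 higher. C4b had 1608, 1927 and 1915 in M_APC and 35013, 36518 and 37210 in M_DPP4_neg, a log2 fold change of -4.32 ± 0.09. In the acute phase and antimicrobial list, 7 of 13 were called lower and 4 higher. Of the 7, 4 were S100a8, S100a9, Ltf and Camp of neutrophil granules. These passed the filter through M_DPP4_neg only, where they were high. Hp, haptoglobin, was higher in M_APC, at 4502, 4404 and 4172 against 158, 89.9 and 139 (5.10 ± 0.18). Saa3, serum amyloid A3, was lower (-2.42 ± 0.20).

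Interferon response genes had 22 of 26 called lower in M_APC and 2 higher, with a median of -1.65. The antiviral gene Rsad2 had 202, 154 and 190 in M_APC and 2319, 2131 and 2046 in M_DPP4_neg, a log2 fold change of -3.57 ± 0.11. Oas2 and Oas1a had log2 fold changes of -3.53 and -3.32, but the Oas genes have close copies, so their separate values are uncertain. Isg15, a ubiquitin-like protein and a further member chosen after its value was seen, had 259, 211 and 207 against 2121, 1296 and 1276. Irf1, an interferon-induced factor, was called higher, at 12084, 11608 and 11414 against 3427, 2844 and 2857.

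Antigen presentation by MHC class I followed in the same direction. Of 13 tested genes, 12 were called lower in M_APC and 0 higher, with a median of -1.20, and with equal totals 10 lower and 0 higher. Nlrc5, the transcriptional activator of these genes, had 68.7, 62.6 and 66.8 in M_APC and 1141, 1505 and 1520 in M_DPP4_neg, a log2 fold change of -4.36 ± 0.13. B2m, the shared light chain, had 8178, 8627 and 7022 against 40823, 28985 and 31989. H2-K1, a class I heavy chain that shares sequence with its relatives, was lower (-1.99 ± 0.08).

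Blood cell markers are given here beside these immune genes. The 15 listed macrophage markers summed to 727 to 997 in M_APC and 576 to 926 in M_DPP4_neg, with 6 of 15 called higher and 4 lower (8 and 1 with equal totals). Ptprc, the pan-leukocyte antigen CD45, had 25.8, 47.5 and 29.4 in M_APC and 68.0, 41.9 and 96.2 in M_DPP4_neg, and the groups overlapped (adjusted p 0.0257). The 13 lymphocyte markers summed to 41.9 to 86.9 against 115 to 215. The neutrophil sums given above were the ones that differed most, and the part of any of these cells in the immune gene counts was not tested.

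Matrix genes were among the most abundant transcripts. All 8 tested fibrillar collagen genes were called lower in M_APC, with a median of -1.62, and 7 of them under quantile normalisation and with equal totals. Col1a1 had 50235, 52490 and 58749 normalised counts in M_APC and 400317, 449714 and 413129 in M_DPP4_neg, a log2 fold change of -2.97 ± 0.10 (adjusted p 2.3e-08). Col1a2, the second chain of collagen I, had a log2 fold change of -2.01 ± 0.10. Col3a1 had 171933, 186829 and 188723 against 592491, 663362 and 625229, a log2 fold change of -1.78 ± 0.11. Quantile normalisation gave Col3a1 a value of 0.00, as it must for a gene that ranks the second in abundance in both groups.

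The other collagens did not move as a block, with 9 of 24 called higher and 10 lower (12 and 10 with equal totals). Col6a5 had 15562, 14798 and 16561 in M_APC and 746, 577 and 599 in M_DPP4_neg, a log2 fold change of 4.62 ± 0.10. Col6a6, its neighbour in the collagen VI family, was higher by 2.81, whereas Col6a3, named after its value was seen, had a log2 fold change of -1.35. Col4a6, a basement membrane collagen, had 838, 742 and 833 against 63.9, 71.5 and 74.0.

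Basement membrane genes were called higher in 15 of 23 and lower in 4, with a median of 0.44 under the deposited scaling and 0.86 with equal totals. Lama1 and Tinagl1 were higher by 2.39 and 2.24, and Egflam by 1.82. Lamc3, a laminin chain, had 1128, 938 and 1066 in M_APC and 624, 829 and 868 in M_DPP4_neg (0.44 ± 0.13, adjusted p 0.0135).

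Elastic fibre and proteoglycan genes were lower in 19 of 35 and higher in 6 under the deposited scaling, and nearly even, 16 and 14, with equal totals. Besides Prg4, Comp had 2.15, 1.16 and 1.13 in M_APC and 292, 213 and 238 in M_DPP4_neg, and Thbs2, a thrombospondin, had 434, 452 and 475 against 9834, 10757 and 12144. Thbs1 of the same family was called higher, at 55760, 48500 and 54629 against 14251, 16378 and 15704. Among matrix proteases and their inhibitors, 14 of 39 were called higher and 15 lower (22 and 13 with equal totals). Timp1 had 613, 642 and 656 against 5947, 3906 and 4022, while Timp4, another inhibitor of the same proteases, was higher by 3.20 ± 0.24.

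Contractile and YAP target genes had 10 of 21 called higher and 7 lower. Lmod1 and Mylk, genes of smooth muscle contraction, were higher by 4.78 and 3.36, whereas Wisp2 was lower, at a log2 fold change of -3.96. Lists of muscle-like mural cells moved with these genes: 7 of 10 tested mural markers were called higher and 2 lower, and the sums of the list were 3542 to 4254 in M_APC and 2044 to 2951 in M_DPP4_neg. Their part in the contractile genes was not tested.

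Markers of other cell types were read in the same way. Of 13 endothelial markers, 12 were called higher in M_APC and 0 lower, and their sums were 4192 to 4859 against 1091 to 1282. Pecam1, the endothelial antigen CD31, had 587, 505 and 503 in M_APC and 115, 95 and 80.2 in M_DPP4_neg. Of 10 tested mesothelial markers, 9 were called higher and 0 lower, with sums of 2941 to 3283 against 66.6 to 119. Among them Msln, Krt7, Krt8 and Gpm6a passed the filter through M_APC only, where they were high. Without Wt1, which is also on the visceral list, the mesothelial sums were 453 to 611 against 55.5 to 107. Msln and Upk3b, markers of the mesothelial surface, had 95.5, 62.6 and 84.8 and 147, 91.6 and 152 in M_APC, against 6.13 or less and 10.2 or less in M_DPP4_neg.

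Epithelial cells were near the lower limit of the data. The 12 listed epithelial markers summed to 39.6 to 50.4 in M_APC and 14.8 to 31.7 in M_DPP4_neg, and Epcam was at 5.11 or less in each library. Of 17 epididymal epithelium genes 0 passed the filter, and 6 had 0 reads in all 6 libraries, while the list summed to 3.22 to 7.92 in M_APC. Skeletal muscle markers summed to 544 to 669 against 224 to 287, Schwann cell and glia markers to 3919 to 4404 against 3450 to 3730, and erythroid markers to 103 to 115 against 38.2 to 98.4. In bulk RNA, fewer cells of a type and less RNA per cell cannot be told apart, and the part of these cells in the other results was not tested.

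General cell state also differed between the groups. All 30 listed ribosomal protein genes were called lower in M_APC, with a median of -0.96, 29 of them with equal totals (median -0.53). Rps3 had 4345, 4944 and 4052 in M_APC and 14219, 8326 and 8785 in M_DPP4_neg. The first M_DPP4_neg library was the highest for Rps3, and without it all 30 genes were still called lower, with a median of -0.79. Ribosomal protein genes have many processed copies, so their separate values are uncertain.

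Immediate early genes, whose transcripts respond quickly to stress and growth signals, had 16 of 24 called higher in M_APC and 6 lower, with a median of 0.85. Fosb had 102627, 99448 and 101727 in M_APC and 28246, 34725 and 33689 in M_DPP4_neg, a log2 fold change of 1.66 ± 0.10. Btg2 was higher by 1.89. The heat shock gene Hspa1b, which has a near-identical copy, was lower (-1.82 ± 0.08).

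Glycolysis and hypoxia genes were lower in 12 of 20 and higher in 6 (7 and 8 with equal totals), led by the angiogenic factor Vegfa at a log2 fold change of -2.27. Oxidative phosphorylation genes had 6 of 33 called higher and 8 lower, but 16 and 8 without M_DPP4_neg replicate 1 and 15 and 1 with equal totals. Proliferation genes had 4 of 26 called higher and 1 lower, but 2 and 4 under quantile normalisation and 13 and 0 with equal totals, so neither list had a direction that held across scalings. Glutathione transferase genes had 11 of 19 called higher and 4 lower. Gsta3 had 542, 575 and 478 in M_APC and 10.2, 7.15 and 8.63 in M_DPP4_neg, a log2 fold change of 5.80 ± 0.17. Agt, angiotensinogen, was higher by 1.42 ± 0.10.

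**Figure D4:**
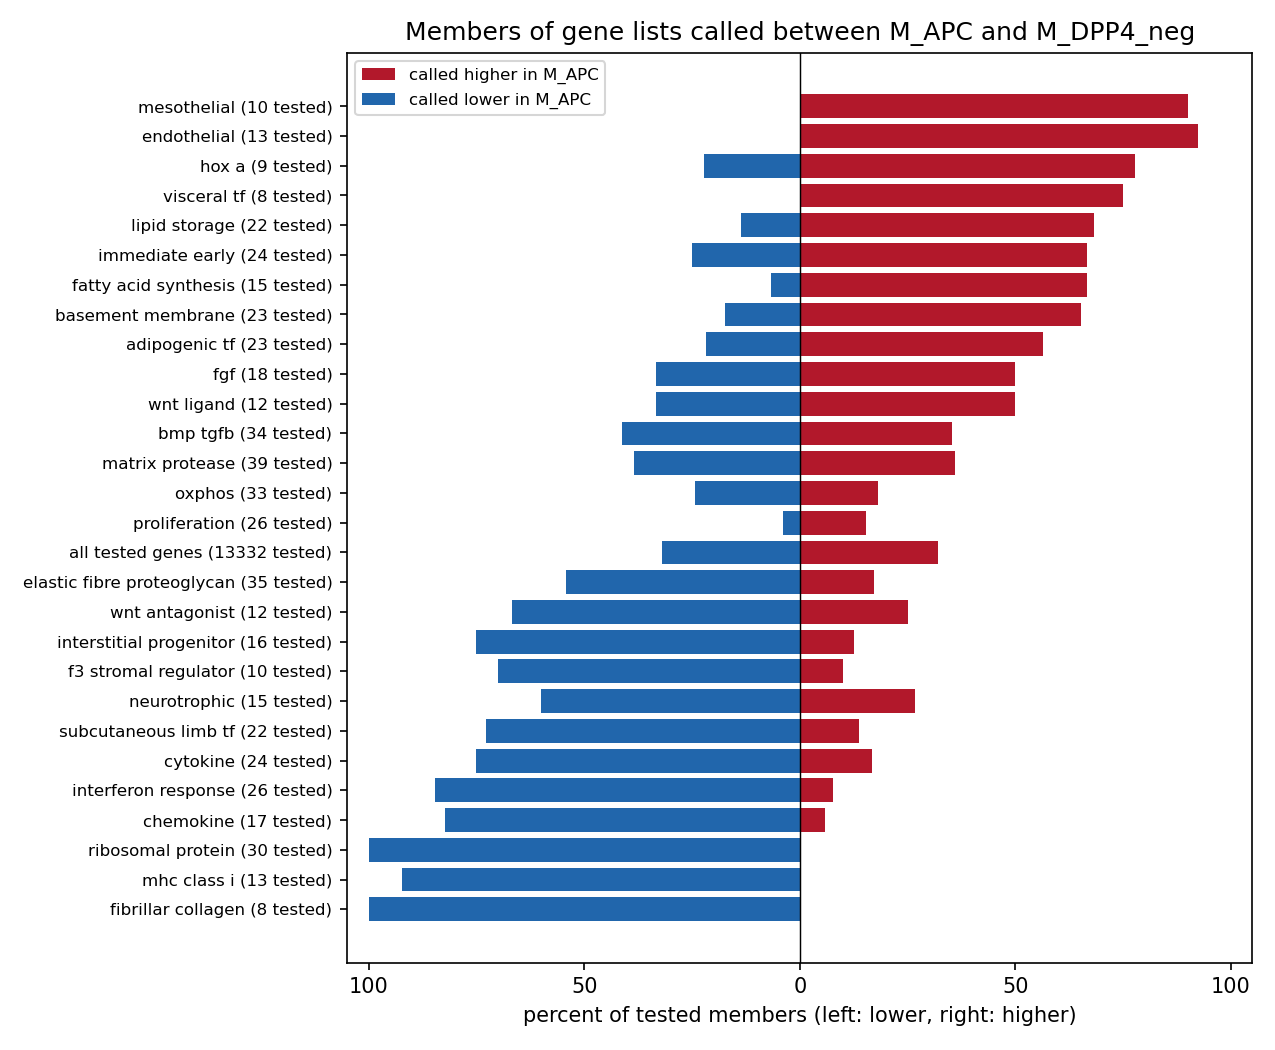
Percent of the tested members of 27 of the gene lists, and of all tested genes, that were called higher (red, right) or lower (blue, left) in M_APC under the deposited scaling. All tested genes stand at 32.1% higher and 32.0% lower, and the fibrillar collagen, ribosomal protein and MHC class I lists reach to the left with no member called higher.

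The same depots were also compared in females (F_APC and F_DPP4_neg) and, in males, with the companion subpopulations FIP of gonadal fat and DPP4_pos of inguinal fat. These comparisons share no library with M_APC and M_DPP4_neg. The 12 epithelial markers summed to 8129 to 19563 in F_DPP4_neg, against 70.3 to 200 in F_APC and 14.8 to 31.7 in M_DPP4_neg, and their part in the female values below was not tested. The difference between the male and female depot contrasts was called for 4888 genes (36.7%). The difference between the APC and DPP4_neg contrast and the FIP and DPP4_pos contrast in males was called for 3853 genes (28.9%).

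Among the 1530 genes called past 2-fold higher in M_APC, the female depot contrast was called in the same direction for 911 and in the opposite direction for 131. The FIP and DPP4_pos contrast was called in the same direction for 1294 of them and in the opposite direction for 36. For the 1722 genes past 2-fold lower, the counts were 1214 and 76 in females and 1326 and 95 for FIP and DPP4_pos. Over all 13332 tested genes, the same direction was called for 6029 in females and 7876 in the male companion contrast. The opposite direction was called for 1313 and 1054 of them. The size of the difference was called as unequal between the sexes for 841 of the higher and 1013 of the lower genes. Over all tested genes the share was 36.7%. Choosing genes by the male contrast, which is part of that difference, raises such counts.

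Tcf21 and Tbx15 were on the same side in all 3 contrasts. Tcf21 was higher in gonadal cells by 6.32 in females and by 7.71 for FIP and DPP4_pos, and the log2 fold changes of Tbx15 were -5.80 and -9.84. For Tcf21 the male contrast exceeded the female one by 2.38 on the log2 scale (adjusted p 1.31e-08). Shox2 had a log2 fold change of -5.65 in females, and its difference between sexes was not called (-1.15, adjusted p 0.105).

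Of the 14 highest genes, 10 were called in the same direction in females, 1 in the opposite direction and 3 not called, and all 14 differences between sexes were called. Enpp6 was the gene with the opposite direction, at a log2 fold change of -2.66 in females. Of the 14 lowest genes, all 14 were called lower in females too, and 12 of the differences were called. Both sets were chosen by the male contrast, which raises these counts of called differences. Over all tested genes the share was 36.7%. Aldh1a3 was higher in M_APC by 6.08, but by 0.64 in females and by 0.12 for FIP and DPP4_pos, where its means were 3378 and 3097. The M_DPP4_neg group was thus the one male group of 4 in which Aldh1a3 was low.

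Some Hox and immune genes differed between the sexes. Hoxc10 averaged 308 in F_APC and 212 in F_DPP4_neg, so the male difference of -5.81 had no called counterpart in females (0.55, adjusted p 0.0654), and the difference between sexes was -6.36 (adjusted p 1.37e-09). Hoxa5, by contrast, was higher in gonadal cells by 2.55 in females, and its difference between sexes was not called (0.34, adjusted p 0.367). Nlrc5 was at -4.36 in males and 0.52 in females. B2m and H2-K1 were at -2.09 and -1.99 in males and at 0.27 (not called) and 0.32 (called) in females. The difference between sexes was called for all 3.

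The neutrophil granule genes separated the M_DPP4_neg libraries from the other male inguinal libraries. S100a8 averaged 459 in M_DPP4_neg, 2.25 in M_DPP4_pos and 61.3 in F_DPP4_neg, and Ltf averaged 274, 0 and 309. The sums of the 7 neutrophil markers were 486 to 1739, 2.20 to 5.65 and 34.1 to 374 in these groups. Ltf, unlike S100a8, is not on that list, and it is also made by gland epithelium.

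**Figure D5:**
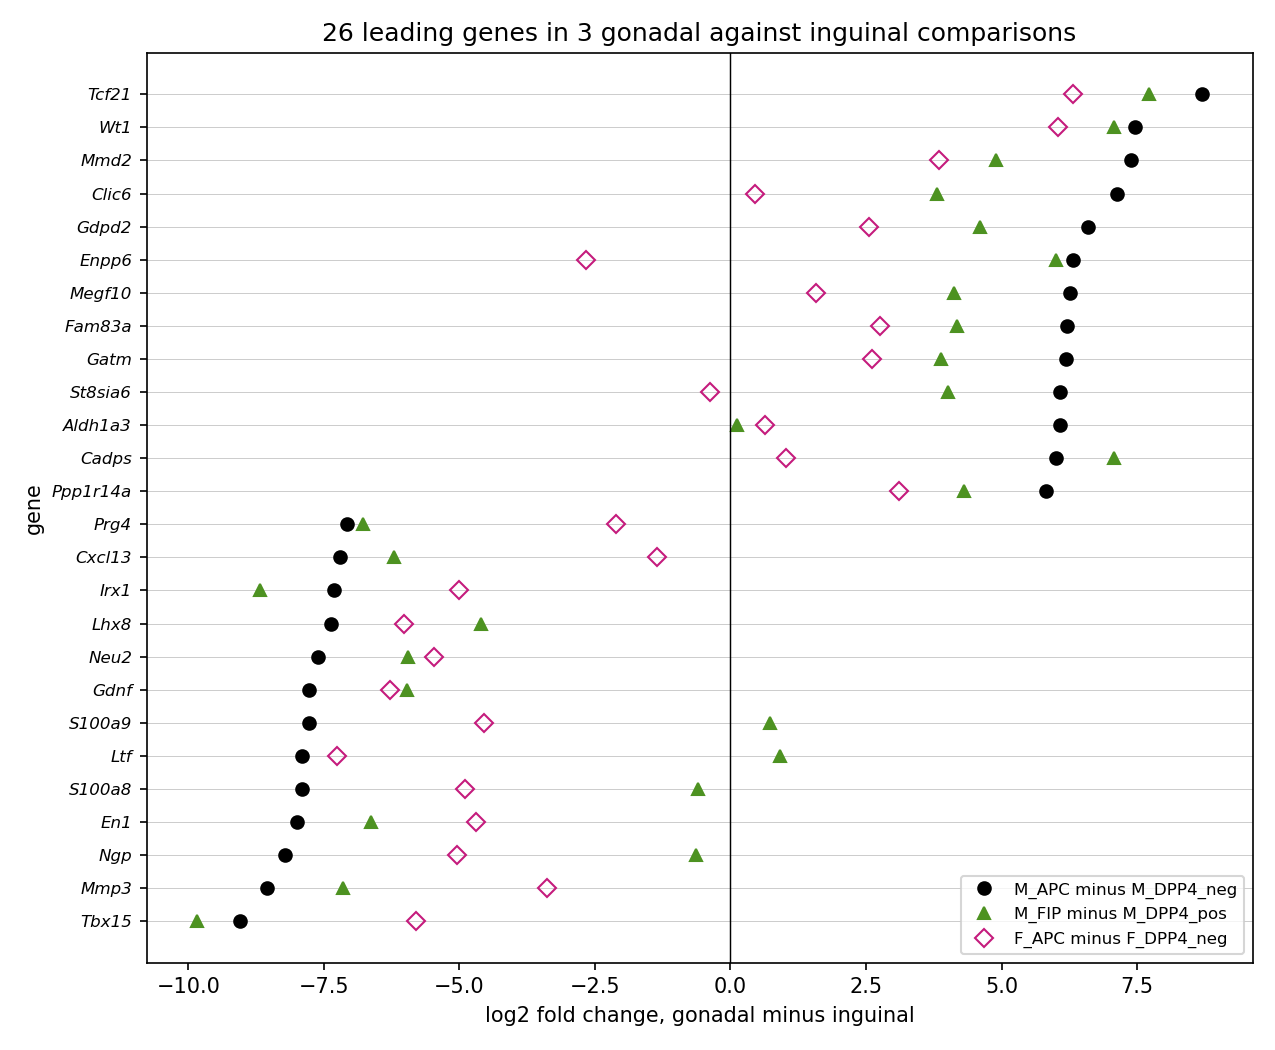
Log2 fold change, gonadal minus inguinal, of 26 of the 28 leading genes in the male APC and DPP4_neg comparison (black circles), the male FIP and DPP4_pos comparison (green triangles) and the female APC and DPP4_neg comparison (open diamonds). Tcf21 at 8.70, 7.71 and 6.32 and Tbx15 at -9.05, -9.84 and -5.80 lie on the same side in all 3, while Aldh1a3 and the neutrophil granule genes lie near 0 in the FIP and DPP4_pos comparison.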

How the data were processed

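RNA was measured in 3 M_APC and 3 M_DPP4_neg libraries. Per the labels' protocols, RNA was extracted with Trizol and 0.5 ug entered NEBNext Ultra II libraries. The submitters' processing notes name Trim Galore 0.4.1, HISAT2 2.0.1, featureCounts 1.4.6, DESeq2 1.6.3, GRCm38 and mm10, and the step each was used for, the annotation and the strandedness of counting stand nowhere in these sources. Each deposited value is a normalised signal for 1 gene. The authors' values are whole reads divided by 1 size factor per library: 100% of the values of each of the 6 libraries were whole multiples of 1 step within 0.01 read. Rows without a symbol held at most 0.0765% of a library's reads.

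Values were put on log2(value + 1), which understates the change of low genes. In R 4.3.3, limma 3.58.1 with a mean-variance trend was fitted to the 6 libraries, with Benjamini-Hochberg adjustment over 13332 genes. The differences between depot contrasts were fitted to the 12 libraries of each. The fit was tested on simulated data. Coordinates were matched by gene identifier to RefSeq GRCm38.p6 (13110 tested genes, 98.3%). The 14 genes with the highest and the 14 with the lowest fold change were named if they were called, did not overlap and averaged 100 or more in one group, leaving out predicted and clone names. Up to 6 called members of each list by size, a set of marker and Hox genes, and the 8 highest and 8 lowest genes of each difference between contrasts were added. Gsn, Twist1, Prrx1, Tbx3, Alx4, Nt5e, Lpl, Fasn, Bmp4, Bmp2, Fst, Ptch1, Ntrk3, Ccl2, Ccl11, Il6, Csf1, Isg15, Irf1, Col6a3, Thbs1 and Timp1 fall outside this rule and were named after their values were seen. Results of some genes that the rule would name are not reported here. The comparison, the members and the lists were chosen with earlier results of these data known. Floors (3 counts) and intervals cover counting error only. Alternatives were another pseudocount (0.5 or 5), filter, scaling or fit, edgeR 4.0.16, DESeq2 1.42.0, all 24 libraries, a replicate block and each library left out; equal-total scaling and the list counts by setting were added after the data were seen.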

Additional observations from a re-analysis of the deposited data

Results flagged for a closer look

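The depot difference was not the same size in both sexes or in both pairs of populations, by a test of the difference itself (limma, Benjamini-Hochberg adjusted). Over all 13332 tested genes it was called for 36.7% between the sexes and 28.9% between the male contrasts. Of the 336 genes named by rule, many of them chosen for large male differences or for these differences themselves, it was called between the sexes in 238 and between the APC and DPP4_neg contrast and the FIP and DPP4_pos contrast in 193, counts that the choice of genes raises. Single values were not checked for outlying libraries gene by gene in groups of 3. Fitted differences of genes with 3 reads or fewer in a group depend on the added count of 1 and are no bounds.

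Male minus female, the difference of the depot contrasts was highest on the log2 scale for the keratin gene Krt8 (10.99), the glutamate receptor gene Gria1 (10.28), Enpp6 (8.97), Nxph3 (8.94), the keratin gene Krt7 (7.08), Clic6 (6.67), St8sia6 (6.45) and Ttyh1 (6.40). In the first 5 of these, F_DPP4_neg was far above M_DPP4_neg: Krt8 averaged 4567 against 0.681, Gria1 301 against 2.93, Enpp6 113 against 3.83, Nxph3 214 against 0.681 and Krt7 757 against 1.02. The 12 epithelial markers, of which Krt8 is one, summed to 8129 to 19563 in F_DPP4_neg and 14.8 to 31.7 in M_DPP4_neg, and their part in these values was not tested. Among the lowest were Hoxc10 (-6.36), Nrn1 (-6.17), Cxcl13 (-5.85), Cox8b (-5.22), Mmp3 (-5.16), Emb (-5.15) and Hoxa10 (-4.97). In Hoxc10, Nrn1, Emb and Hoxa10 the gonadal group was the one that differed most between sexes: Emb averaged 7.92 in M_APC and 584 in F_APC, and Hoxa10 1.89 and 122.

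Between the male contrasts, APC and DPP4_neg minus FIP and DPP4_pos, the difference was highest for Aldh1a3 (5.96), Stab1 (4.50), Pgf (4.25), Fyb2 (3.94), Kcnn3 (3.86), Tmeff1 (3.80), Lvrn (3.71) and Adgrg6 (3.51). Pgf, a growth factor of vessels, averaged 119 in M_APC and 44.9 in M_DPP4_neg, but 138 in M_FIP and 1020 in M_DPP4_pos, so the inguinal groups differed. It was lowest for Ltf (-8.81), S100a9 (-8.51), Ngp (-7.58), S100a8 (-7.32), Chil3 (-6.36), Camp (-6.06), Gfra2 (-5.91) and Lsamp (-5.31). The first 6 are granule or secreted genes of myeloid cells. Beside them, the 7 neutrophil markers summed to 486 to 1739 in M_DPP4_neg and to 15.1 or less in M_APC, M_FIP and M_DPP4_pos, and their part was not tested. Gfra2 averaged 9.10 in M_APC and 93.1 in M_DPP4_neg, but 265 in M_FIP and 46.8 in M_DPP4_pos.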

How the results depend on the processing

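The number of genes called stayed within 1.5 times of 8538 under each alternative run, from 7061 with a mean of at least 50, 7893 with DESeq2, 8363 with quantile normalisation, 8586 with edgeR and 8587 with TMM to 9274 with all 24 libraries and 9732 with equal library totals. With equal totals 74.8% of the calls were higher in M_APC against 50.1% as deposited, and for the difference between sexes 82.9% (of 7148) against 49.8%. Past 2-fold, equal totals gave 4165 genes, 75.3% of them higher against 47.0%. The count past 2-fold was 2144 when genes needed a mean of at least 50, because fewer genes (10447) were tested. Leaving out 1 library at a time gave 7477 to 9211 genes called, 3194 to 3362 past 2-fold, 3209 to 4795 for the difference between the male contrasts and 4243 to 5195 for that between sexes. Without M_DPP4_neg replicate 1, 8295 of the 8538 genes were called in the same direction.

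Of the 336 named genes, all 336 kept direction and call with edgeR and with either other pseudocount, and 320 with equal totals and 324 to 334 with 1 library left out. Col3a1 came to 0.00 with quantile normalisation and Dpp4 to 0.07 with equal totals, neither called. The Y-linked gene Ddx3y, at -0.09 and not called as deposited, was called higher with quantile normalisation (0.31) and with equal totals (0.34). Dpp4 also lost its call, at log2 fold changes of -0.31 to -0.35, with TMM, DESeq2, all 24 libraries, no filter, no mean-variance trend and the replicate block. It lost it in 4 of the 6 fits with 1 library left out (-0.21 to -0.39), so its adjusted p of 0.0414 is close to the threshold.

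Same-numbered libraries did not deviate together (r of -0.081, -0.233 and 0.095), so the numbers were not taken as pairs. With a replicate block, 8069 genes were called, 3250 past 2-fold, 3573 for the difference between the male contrasts and 4796 for that between sexes. edgeR, DESeq2 and TMM were not run for the difference between sexes. Depth limits the genes at a few reads, whose intervals are wide.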
